A study of Mus musculus with 12 samples.

Results

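Cdkn1a, which encodes the cell cycle inhibitor p21, was examined in peritoneal B cells together with Trp53, the gene of the transcription factor p53, and 8 well known p53 target genes: Mdm2, Ccng1, Bax, Trp53inp1, Zmat3, Phlda3, Sesn2 and Bbc3. The 10 genes are rows of a count table with 56941 rows, of which 56425 carry a gene symbol. They were picked by name around the higher Cdkn1a level of knock-in (KI) cells, so the Cdkn1a difference between KI and control is given here as a description without a test. The question was whether that difference came with a difference in the other 9 genes. Of the 10 genes, 9 passed the filter on low counts, and Phlda3 did not.

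RNAseq libraries had been made from 12 sorts of mouse peritoneal cavity cells, 3 for each of 4 groups. B2 cells were sorted as IgD+IgM+ and memory B cells (MemB) as IgD-IgM-. KI mice carried Cd21-Cre and the allele R26 LSL-Gpr34Q340X-IRES-GFP, in which Cre removes a stop cassette at the Rosa26 locus and so starts expression of a truncated, gain-of-function form of the lysophosphatidylserine receptor GPR34 together with GFP. Control mice are labelled only as control, and whether they carried Cd21-Cre or the unrecombined allele is not given in the labels. Cd21 (Cr2) drives Cre in mature B cells, and the gates named in the labels did not use the GFP reporter, so a KI sort can hold cells that had not recombined the allele. The labels give neither age nor sex of the donors. The study's methods speak of adult mice of both sexes, matched for age and sex, over all of its experiments, without giving either for these libraries. The labels call the 3 libraries of a group biological replicates without saying whether animals were pooled.

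p53 is a transcription factor that is stabilized by DNA damage, oncogene activity and other stress, and it then raises a set of genes that halt the cell cycle, start apoptosis or repair damage. Mdm2 is both a target and the main negative regulator of p53, as its product marks the protein for degradation. Cdkn1a is the best known arrest gene of the pathway, but it is also raised without p53 by other signals such as TGF-beta and mitogenic signals, and in lymphocytes p21 limits cyclin-dependent kinases as cells enter division.

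p53 binds a paired 10-base half-site, the p53 response element, and the matches near the 10 genes are shown since they set the listed genes beside their presumed regulator. Both strands of the mm39 genome (GRCm39, GENCODE M39 gene models) were searched from 2500 bases before to 2500 bases after each gene's annotated 5′ end, requiring the 4 core bases of each half-site and allowing up to 2 mismatches elsewhere in the 20 bases. Of the 10 genes, 3 held a match (30.0%), against 649 of 21751 protein-coding genes (2.98%) and 8 of the 38 genes of a further list of p53 targets (21.1%). The lists were picked for known p53 targets, so their higher share says nothing about p53 in these cells. The 3 matches are written 5′ to 3′ with the half-site cores in capitals.
Cdkn1a: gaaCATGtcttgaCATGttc
Ccng1: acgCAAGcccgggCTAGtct
Zmat3: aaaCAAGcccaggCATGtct
The Cdkn1a match lay at chr17:29309902-29309921 on the plus strand, just upstream of the annotated gene (chr17:29309936-29319701). The Ccng1 match, written as it reads on the minus strand of the gene, lay in an intron at chr11:40645763-40645782. The Zmat3 match, also written on the minus strand, had 0 mismatches and lay in an exon at chr3:32418480-32418499. A match is a description of letters, and the absence of one in this window says nothing about binding of p53, which also uses sites farther away.

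Total counts ran from 29895068 to 39732124 per library, and 29.3% to 38.4% of them fell on 3 ribosomal RNA genes. Gpr34, the gene of the KI allele, had 102 to 224 counts in control B2 and 3188 to 4603 in KI B2, and 660 to 1029 in control MemB and 3884 to 5496 in KI MemB, so every library matched its genotype label. The 7 B cell markers summed to between 3398 and 3907 CPM, the TMM-normalized counts of a gene at a common library size, in all 12 libraries. Replicate 3 of every group had high Xist (2423 to 3240 CPM, against 29.4 to 66.7 in the other 8 libraries), and so differed in sex from replicates 1 and 2.

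Cdkn1a was low in all 6 control libraries and higher in 5 of the 6 KI libraries. In control MemB it had 0.627, 0.470 and 0.240 CPM in replicates 1, 2 and 3, from 22, 16 and 8 counts. In KI MemB the same gene had 29.2, 11.6 and 27.8 CPM, from 853, 377 and 852 counts. All 3 KI MemB libraries lay above all 3 control MemB libraries, and the lowest of the former was 18.5 times the highest of the latter. The group means were 0.446 ± 0.194 CPM in control MemB and 22.9 ± 9.80 CPM in KI MemB (SD, n = 3), a ratio of 51.3. On the log2 scale the fitted difference was 5.67.

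B2 cells gave a less even picture for Cdkn1a. Control B2 libraries had 0.202, 0.303 and 1.197 CPM, from 6, 9 and 39 counts. KI B2 libraries had 0.384, 8.22 and 13.7 CPM, from 12, 335 and 537 counts. KI B2 replicate 1 lay within the control range, although its Gpr34 level of 102 CPM was close to the 113 and 101 CPM of the other KI B2 libraries, while replicates 2 and 3 were at least 6.87 times the highest control. The means were 0.567 ± 0.548 CPM in control B2 and 7.45 ± 6.71 CPM in KI B2 (SD, n = 3), with a fitted log2 difference of 3.70. Without control B2 replicate 3, the highest control, the B2 difference was 4.87, and without KI B2 replicate 3 it was 2.91.

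In bulk libraries a share of cells with much Cdkn1a and a moderate level in every cell cannot be told apart, nor can fewer cells of a type and less RNA per cell. The Cdkn1a gene overlaps Dino and Gm64878 on the other strand, and the strand setting of the counting is not given in the sources used here. Annotated genes also overlap exons of Mdm2 (Gm56970), Bax (Gm45808 and Gm73431) and Trp53 (Gm57392), and their counts are not given here. Dino was at 0 counts in 10 libraries and had 35 counts in KI B2 replicate 1, the KI library with low Cdkn1a, and 1 in KI B2 replicate 3.

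**Figure D1:**
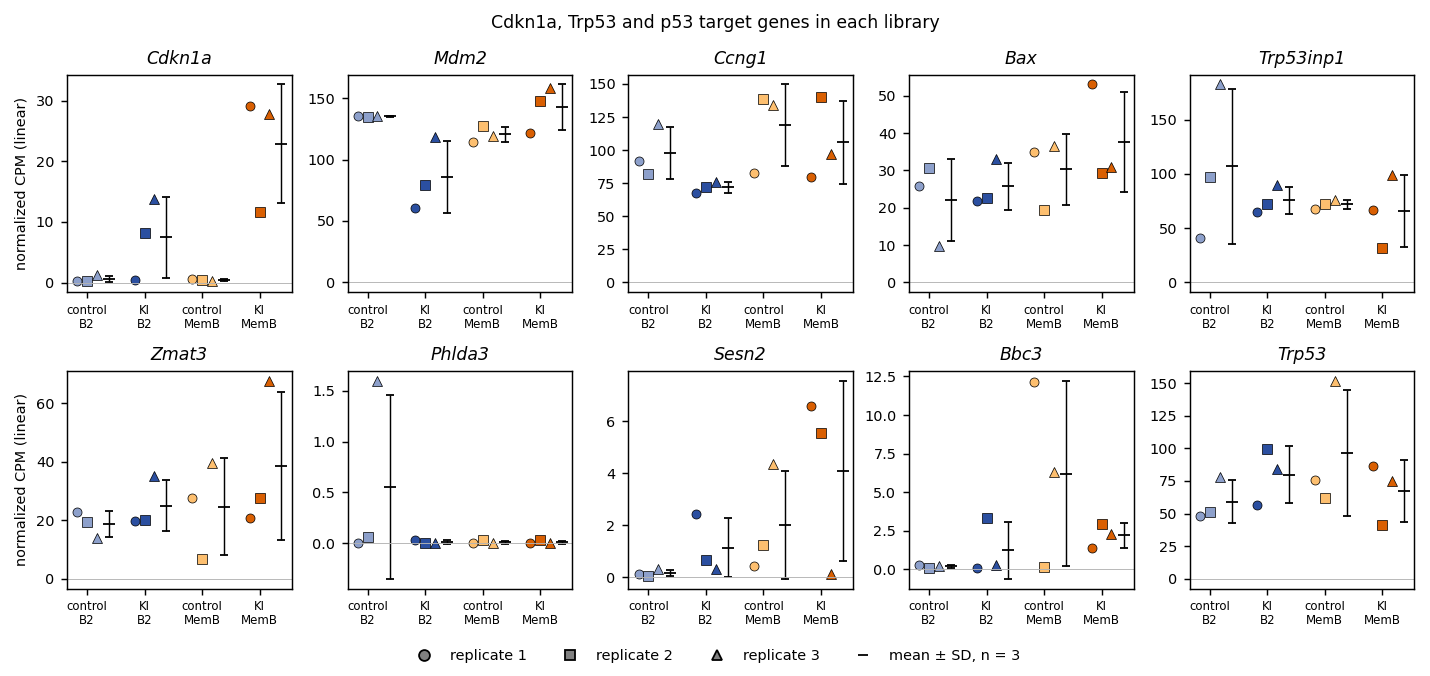
Normalized CPM (linear axis, a separate scale for each gene) of the 10 genes in each of the 12 libraries, with the mean and SD of each group of 3 beside the points. Cdkn1a lies between 11.6 and 29.2 CPM in the 3 KI MemB libraries and between 0.202 and 1.197 CPM in the 6 control libraries, while the MemB points of the other 9 genes overlap between KI and control.

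None of the other 8 genes tested was called in MemB. With edgeR's quasi-likelihood test, 0 of the 8 passed both limits of a call, an adjusted p below 0.05 and a change of more than 1 on the log2 scale, where 0.286% of all genes tested were called, and 0 of the 8 had an unadjusted p below 0.05, where 11% of all genes did. DESeq2 also called 0 of them, where it called 3.03% of all genes tested. Between KI and control MemB, 4 of the 8 had a higher and 4 a lower mean, where 48.5% of all genes tested were higher, and the median log2 difference was 0.06, against -0.03 over all genes tested. The KI and control MemB libraries overlapped for all 8, where 12.1% of all genes tested did not overlap. In the plot of KI effects, the MemB intervals of all 8 include 0, and those of Sesn2 and Bbc3 are wide. In B2 the Mdm2 interval, from -1.25 to -0.06, lies below 0 and the other 7 include it.

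Mdm2, the feedback inhibitor of p53, was the most precisely measured of the targets. It had 115, 127 and 119 CPM in control MemB and 122, 147 and 158 CPM in KI MemB. The lowest KI library fell between the control libraries, and the other 2 lay above them. The log2 difference was 0.24 ± 0.29 (SE, adjusted p = 0.841), and its 95% interval from -0.35 to 0.83 does not reach a 2-fold change in either direction.

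In B2 cells Mdm2 differed in the other direction. Control B2 libraries had 136, 134 and 135 CPM, closely alike, and KI B2 libraries had 60.7, 79.4 and 118 CPM, all of them lower. On the log2 scale the difference was -0.65 ± 0.29 (SE), with an unadjusted p of 0.0330 and an adjusted p of 0.837, so it did not pass the test over all genes. The lowest Mdm2 level was in KI B2 replicate 1, which was also the KI library with the least Cdkn1a. The KI effects on Mdm2 in MemB and B2 differed by 0.89 on the log2 scale (95% interval from 0.05 to 1.73, adjusted p = 0.558).

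Ccng1 encodes cyclin G1, a target that feeds back on p53 through Mdm2. It had 83.1, 139 and 134 CPM in control MemB and 79.9, 140 and 97.0 CPM in KI MemB in nearly coincident ranges. The log2 difference was -0.17 ± 0.32 (SE, adjusted p = 0.919), with a 95% interval from -0.82 to 0.49. In B2 the control libraries had 91.6, 81.7 and 120 CPM and the KI libraries 67.5, 72.3 and 75.6 CPM, lower in all 3 without overlap. That difference of -0.45 ± 0.32 (SE) on the log2 scale did not pass the test either (adjusted p = 0.938, 95% interval from -1.10 to 0.21). Ccng1 overlaps Nudcd2 on the other strand, which had 14 to 491 counts per library, against 2106 to 4718 for Ccng1.

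Among the genes for cell death, Bax encodes a pore-forming member of the BCL2 family. It had 35.0, 19.3 and 36.7 CPM in control MemB and 53.1, 29.2 and 30.8 CPM in KI MemB, with overlap. KI and control differed on the log2 scale by 0.31 ± 0.57 (SE, adjusted p = 0.908, 95% interval from -0.84 to 1.47) in MemB and 0.22 ± 0.57 (SE, adjusted p = 0.999) in B2, where control libraries had 9.70 to 30.7 CPM and KI libraries 21.7 to 33.0 CPM.

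Bbc3 encodes PUMA, a BH3-only protein that sets off apoptosis, and it was scarce and uneven. Control MemB libraries had 12.2, 0.147 and 6.30 CPM, from 427, 5 and 210 counts, and KI MemB libraries had 1.37, 2.94 and 2.32 CPM. The KI values lay inside the control range, and the log2 difference of -1.49 ± 1.67 (SE, adjusted p = 0.821) had a 95% interval from -4.88 to 1.91. In B2 there were 8, 3 and 7 counts in control and 2, 137 and 11 in KI, so 1 library, KI B2 replicate 2, gave most of the difference of 2.64 ± 1.75 (SE, adjusted p = 0.908). Without that library the difference was -0.17.

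Trp53inp1 encodes a stress protein that promotes p53 activity and autophagy. It had 67.9, 71.9 and 76.2 CPM in control MemB and 67.0, 31.8 and 99.0 CPM in KI MemB, and the KI libraries lay on both sides of the control ones. The log2 difference was -0.13 ± 0.42 (SE, adjusted p = 0.956, 95% interval from -0.99 to 0.74). In B2 the spread was on the control side, with 40.8, 97.5 and 183 CPM against 65.0, 72.2 and 89.6 CPM in KI, a difference of -0.50 ± 0.42 (SE, adjusted p = 0.980).

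Zmat3 encodes an RNA-binding zinc finger protein and was the target whose pattern over the libraries was nearest to that of Cdkn1a. It had 27.6, 6.81 and 39.7 CPM in control MemB and 20.7, 27.6 and 67.7 CPM in KI MemB, with overlap. Its log2 difference was 0.65 ± 0.63 (SE, adjusted p = 0.782, 95% interval from -0.65 to 1.94), and without KI MemB replicate 3, its highest library, it was -0.03. In B2 the control libraries had 23.0, 19.4 and 14.1 CPM and the KI libraries 19.7, 20.1 and 35.1 CPM, a difference of 0.41 ± 0.63 (SE, adjusted p = 0.999).

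Sesn2 encodes sestrin 2, which restrains mTORC1 under stress, and it too was scarce. Control MemB had 15, 43 and 145 counts (0.427, 1.26 and 4.35 CPM) and KI MemB had 192, 181 and 4 counts (6.57, 5.55 and 0.131 CPM). KI MemB thus held both the highest and the lowest of the 6 values, and the difference of 1.02 ± 1.70 (SE, adjusted p = 0.897) had a 95% interval from -2.44 to 4.48. In B2 there were 4, 2 and 10 counts in control and 76, 27 and 13 in KI, higher in all 3 KI libraries without overlap, with a log2 difference of 2.72 ± 1.81 (SE, adjusted p = 0.908). The KI B2 library with the most Sesn2, replicate 1, was the one with the least Cdkn1a, Mdm2 and Ccng1 of the 3.

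Phlda3, a repressor of AKT signalling, had 0 to 2 counts in 11 libraries and 52 counts in control B2 replicate 3. It had 0 or 1 counts in all 6 KI libraries. The gene did not pass the filter on low counts, so no difference between KI and control was tested.

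Trp53 itself had a lower mean in KI than in control MemB, within the spread of the libraries. It had 75.8, 61.9 and 152 CPM in control MemB and 86.6, 41.0 and 74.7 CPM in KI MemB, with overlap. This was a log2 difference of -0.52 ± 0.40 (SE, adjusted p = 0.682, 95% interval from -1.32 to 0.29) in MemB and 0.44 ± 0.40 (SE, adjusted p = 0.983, 95% interval from -0.37 to 1.24) in B2, where control libraries had 47.8, 51.4 and 78.1 CPM and KI libraries 56.4, 99.3 and 83.9 CPM. Wrap53 overlaps Trp53 on the other strand, with 6 to 344 counts per library against 1335 to 5053 for Trp53. p53 is set mainly by protein stability, which these libraries do not measure.

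**Figure D2:**
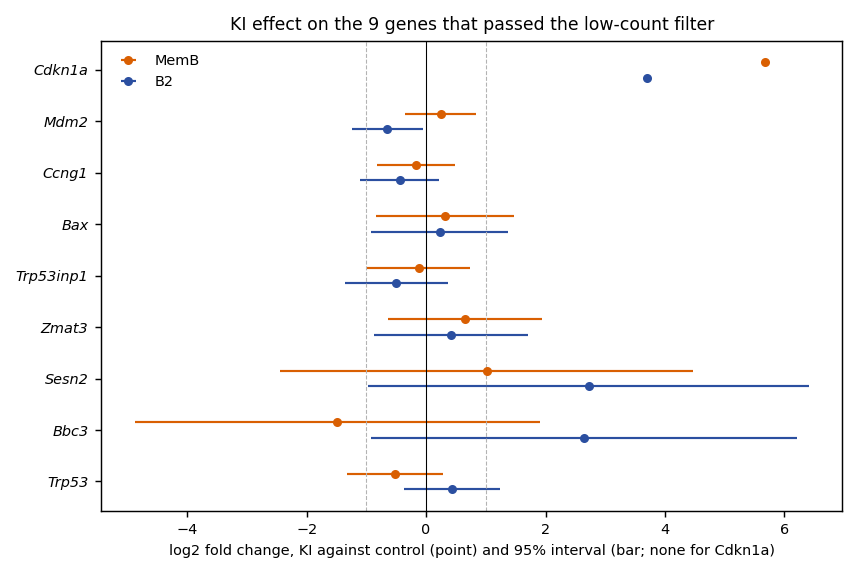
Log2 fold change of KI against control (points) for the 9 genes that passed the filter, with 95% intervals (bars) for all but Cdkn1a, which was chosen for this difference, in MemB (orange) and B2 (blue), with dashed lines at a log2 change of -1 and 1. Cdkn1a stands at 5.67 in MemB and 3.70 in B2, Mdm2, Ccng1, Trp53inp1, Bax, Zmat3 and Trp53 lie between -0.65 and 0.65, and the intervals of Sesn2 and Bbc3 span several log2 units.

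In B2 the 8 genes other than Cdkn1a again gave 0 calls with edgeR, where 0.00664% of all genes tested were called. DESeq2 also called 0, where it called 0.272% of all genes tested, and Mdm2 was the single gene of the 8 with an unadjusted p below 0.05, where 5.74% of all genes were. Higher means in KI were found for 5 and lower means for 3, where 48.4% of all genes tested were higher, with a median log2 difference of 0.32, against -0.03 over all genes tested. Non-overlap was seen for 3 of the 8 genes, Sesn2 higher and Mdm2 and Ccng1 lower, where 10.2% of all genes tested did not overlap.

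With both cell types averaged, 0 of the 8 genes were called by edgeR or DESeq2, where edgeR called 0.0797% and DESeq2 1.89% of all genes tested, and 0 had an unadjusted p below 0.05, where 9.71% of all genes did. The smallest adjusted p was 0.664, for Sesn2 at 1.87 ± 1.23 (SE) on the log2 scale. The averaged difference was -0.20 for Mdm2 (95% interval from -0.62 to 0.21) and -0.31 for Ccng1 (95% interval from -0.77 to 0.16), so neither interval reaches a 2-fold rise. It was -0.04 for Trp53 (95% interval from -0.61 to 0.53). For Cdkn1a the averaged difference was 4.69, given as a description. For the difference between MemB and B2 in the KI effect, 0 of the 8 were called by either tool, where edgeR called 0.0664% and DESeq2 1.35% of all genes tested, and Mdm2 alone had an unadjusted p below 0.05, where 8.52% of all genes did.

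MemB and B2 were also compared over both genotypes. Cdkn1a was picked for its level in KI cells, whose libraries enter this contrast, so its p-value here is not independent of that choice. With edgeR 0 of the 9 were called, where 1.02% of all genes tested were. DESeq2 called 0 of the 8 other than Cdkn1a, where it called 3.81% of all genes tested. Sesn2 and Bbc3 had an unadjusted p below 0.05, where 12.9% of all genes did. Bbc3 was 2.90 ± 1.24 (SE) higher in MemB on the log2 scale (adjusted p = 0.297) and Sesn2 2.69 ± 1.27 (SE) higher (adjusted p = 0.360). Cdkn1a differed by 0.63 ± 0.80 (SE, adjusted p = 0.817, 95% interval from -1.001 to 2.27). Within control mice the Cdkn1a difference between MemB and B2 was -0.35 (95% interval from -2.67 to 1.98), and the values of both groups overlapped. Of the other 8 genes, edgeR called 0 within control mice, where 0.266% of all genes tested were called, and 1, Bbc3, had an unadjusted p below 0.05, where 10.6% did. DESeq2 called Bbc3 higher in control MemB than in control B2, where it called 2.59% of all genes tested, and the edgeR difference was 4.96 ± 1.94 (SE, adjusted p = 0.392) on the log2 scale. Control MemB ran from 5 to 427 counts of Bbc3, and its replicate 2, with 5, lay within the 3 to 8 counts of control B2.

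Per kilobase of merged exons, Cdkn1a ranked low in control cells and in the middle of the list in KI MemB. The merged length joins all annotated exons of a gene, with 6.045 kb for Cdkn1a and 11.442 kb for Zmat3. It can exceed the length of the expressed mRNA by unequal amounts between genes, so the order of genes on this scale is approximate. The means over the 12 libraries were 22.4 CPM per kb for Ccng1, 15.7 for Mdm2, 15.6 for Bax, 10.9 for Trp53inp1 and 10.3 for Trp53. They were 2.34 for Zmat3, 1.295 for Cdkn1a, 0.514 for Bbc3, 0.408 for Sesn2 and 0.0565 for Phlda3. The ranges of neighbouring genes in this order overlapped. Cdkn1a had 0.0737 ± 0.0322 CPM per kb in control MemB and 3.78 ± 1.62 in KI MemB (SD, n = 3), where Mdm2 had 15.6 ± 0.829 and 18.5 ± 2.42. Over all libraries the highest Cdkn1a value was 144 times the lowest, against 2.61 times for Mdm2, 2.08 times for Ccng1, 3.70 times for Trp53, 5.47 times for Bax, 5.74 times for Trp53inp1 and 9.93 times for Zmat3. Bbc3 ran from 0.0641 to 12.2 CPM and Sesn2 from 0.0672 to 6.57 CPM, which is also wide on a log scale, but no ratio is given because their lowest libraries had 2 counts each, under the floor of 3 counts.

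A further 38 genes known as p53 targets were read in the same fits, of which 28 passed the filter. In MemB 17 of the 28 had a higher and 11 a lower mean in KI, with a median log2 difference of 0.05. With edgeR 0 were called higher, where 0.0797% of all genes tested were, and 1 was called lower, where 0.206% were. DESeq2 called 0 higher and 2 lower, Ptpn14 and Ephx1, where it called 3.03% of all genes tested in either direction. In each comparison, 2 of the 28 had no DESeq2 adjusted p and so could not be called by it. At an unadjusted edgeR p below 0.05, 2 of the 28 were higher and 2 lower, where 11% of all genes passed in either direction. In B2 0 of the 28 were called by edgeR, where 0.00664% of all genes tested were, and 1, Ptpn14, by DESeq2, where 0.272% were. There 11 had a higher and 17 a lower mean, with a median of -0.29, and at an unadjusted p below 0.05 there were 2 higher and 1 lower, where 5.74% of all genes passed in either direction. The KI and control B2 libraries did not overlap for 4 of the 28, with Psrc1, Rrm2b and Ei24 higher and Ptpn14 lower, where 10.2% of all genes tested did not overlap. With both cell types averaged, DESeq2 called Ptpn14 alone of the 28, where it called 1.89% of all genes tested.

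Rrm2b, the p53-inducible small subunit of ribonucleotide reductase, had 27.6, 27.8 and 20.2 CPM in control B2 and 90.6, 61.0 and 33.8 CPM in KI B2, and is named after its values were seen. The log2 difference in B2 was 1.29 ± 0.50 (SE, adjusted p = 0.836), and its highest level was in KI B2 replicate 1, the KI library with the least Cdkn1a. Among the listed genes tested, Mdm2, Ccng1, Bax, Trp53inp1, Zmat3, Bbc3 and Trp53 also had their lowest KI B2 level in that library. Sesn2 had its highest KI B2 level there. In MemB Rrm2b had a lower mean in KI, with a difference of -0.28 ± 0.49 (SE, adjusted p = 0.90). Ei24, an autophagy gene, differed by 0.42 ± 0.58 (SE, adjusted p = 0.999) in B2.

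The gene called lower in MemB was Ptpn14, a tyrosine phosphatase that restrains YAP and is known to be induced by p53. It had 21.2, 30.0 and 15.7 CPM in control MemB and 0.411, 0.552 and 0.425 CPM in KI MemB, far below and without overlap. The log2 difference was -5.58 ± 1.14 (SE, adjusted p = 0.0171). In B2, the control libraries had 5.42, 20.04 and 20.1 CPM and the KI libraries 0.577, 3.36 and 1.51 CPM, also without overlap, with a difference of -3.06 ± 1.00 (SE, adjusted p = 0.836). Averaged over both cell types the difference was -4.32 ± 0.75 (SE, adjusted p = 0.00471). Leaving out control MemB replicate 2 or any 1 of the 3 KI MemB libraries lifted the MemB adjusted p to between 0.0620 and 0.123.

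Other p53 targets whose KI and control MemB libraries did not overlap were Pltp and Pmaip1 on the higher side and Ephx1 and Dcxr on the lower, 5 of 28 with Ptpn14, where 12.1% of all genes tested did not overlap. Pmaip1, which encodes the BH3-only protein NOXA, had 18.4, 18.1 and 5.43 CPM in control MemB and 30.2, 50.9 and 31.5 CPM in KI MemB (log2 difference 1.43 ± 0.72 SE, adjusted p = 0.457). Pltp, a phospholipid transfer protein, differed by 2.11 ± 1.10 (SE, adjusted p = 0.479). Ephx1, microsomal epoxide hydrolase, differed by -3.08 ± 0.95 (SE, adjusted p = 0.233) and was called lower by DESeq2 (adjusted p = 0.0098), and Dcxr, a carbonyl reductase, by -1.54 ± 1.65 (SE, adjusted p = 0.809).

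Chosen after their values were seen, 4 further targets are named because their difference lay above the 95th percentile of all genes tested in MemB or in B2. Gtse1, a G2 and S phase protein, had the largest difference of the list in MemB at 6.17 (adjusted p = 0.321), which rested on 1 library, with 692 counts in KI MemB replicate 1 and 2 to 13 in the other 11. Wrap53, the antisense neighbour of Trp53, had 0.456, 0.323 and 1.14 CPM in control MemB and 1.13, 7.18 and 11.2 CPM in KI MemB, with overlap (3.34 ± 1.63 SE, adjusted p = 0.450). Psrc1, a microtubule-associated protein, had 0, 1 and 0 counts in control B2 and 2, 3 and 67 in KI B2 (adjusted p = 0.836), so its large fitted difference rested mostly on KI B2 replicate 3. Gadd45a, a growth arrest gene, had 18.9, 11.8 and 1.13 CPM in KI B2 and 0.672 to 2.30 CPM in control B2 (log2 difference 3.00 ± 1.54 SE, adjusted p = 0.849). Its highest library was KI B2 replicate 1, where Cdkn1a was at the control level. On the lower side, Ptpn14 alone of the 28 lay below the 5th percentile of all genes tested in MemB, and Ptpn14, Slc19a2 and Dcxr did in B2. Dcxr had 3.50, 3.30 and 0.614 CPM in control B2 and 0.192, 1.03 and 0.0512 CPM in KI B2, with overlap (-2.53 ± 1.71 SE, adjusted p = 0.911). Slc19a2, a thiamine transporter, differed by -2.57 ± 1.54 in B2 (SE, adjusted p = 0.898).

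Fas, the death receptor gene and a p53 target, had a KI effect in MemB of 0.15 ± 0.96 (SE, adjusted p = 0.984, 95% interval from -1.80 to 2.09). It was higher in MemB than in B2 over both genotypes by 3.22 ± 0.74 (SE, adjusted p = 0.0165), where 0.644% of all genes tested were called higher, but the call was lost without control B2 replicate 2 or 3, KI B2 replicate 3 or KI MemB replicate 1 (adjusted p from 0.0504 to 0.0547). Its libraries had 8.97 to 34.1 CPM in MemB and 0.393 to 10.5 CPM in B2. For MemB against B2 over both genotypes, DESeq2 called 2 of the 28 further targets higher, Fas and Psrc1, and 3 lower, Ephx1, Gadd45a and Plk2, where it called 3.81% of all genes tested. Plk2, a polo-like kinase, had 0 to 2 counts in the 6 MemB libraries and 1 to 227 in B2 (edgeR adjusted p = 0.0857). It passed the filter only through B2 libraries. No size is given for its difference because all MemB libraries lay under the floor of 3 counts.

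Of 18 genes that regulate p53, 17 passed the filter, and 5 had a higher and 12 a lower mean in KI MemB, with a median of -0.20. With edgeR 0 were called in MemB or in B2, where 0.286% and 0.00664% of all genes tested were. At an unadjusted p below 0.05 there were 2 and 0, where 11% and 5.74% of all genes passed. DESeq2 called 1 in MemB, Rchy1, and 0 in B2, where it called 3.03% and 0.272% of all genes tested. Rchy1, a ubiquitin ligase for p53, had 7.04, 12.9 and 13.1 CPM in control MemB and 45.9, 32.5 and 55.2 CPM in KI MemB without overlap (2.02 ± 0.59 SE, adjusted p = 0.201), and its DESeq2 adjusted p was 0.00158. Averaged over both cell types its difference was 1.202 ± 0.40 (SE, edgeR adjusted p = 0.291), and DESeq2 called it higher there too. Mdm4, which binds p53 and blocks its activity, had 476, 551 and 485 CPM in control MemB and 316, 416 and 376 CPM in KI MemB (-0.45 ± 0.21 SE, adjusted p = 0.418). Bcl6, a repressor of Trp53 and Cdkn1a in germinal centre B cells, was lower in MemB than in B2 over both genotypes (log2 difference -1.82 ± 0.47 SE, adjusted p = 0.0451), where 0.372% of all genes tested were called lower. That call was lost on leaving out any 1 of 8 of the 12 libraries, with adjusted p up to 0.222. In KI against control MemB its difference was 0.80 ± 0.65 (SE, adjusted p = 0.707).

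Of 16 genes for the partners and relatives of p21, 13 passed the filter, and 0 were called in MemB or B2 by edgeR, where 0.286% and 0.00664% of all genes tested were. At an unadjusted p below 0.05 there were 2 in each cell type, where 11% and 5.74% of all genes passed. DESeq2 called 1 in MemB, Cdk6, and 0 in B2, where it called 3.03% and 0.272% of all genes tested. Ccna2, the S phase cyclin A2 that p21 can inhibit in its kinase complex, had 9.71, 11.2 and 4.62 CPM in control MemB and 50.8, 21.1 and 34.6 CPM in KI MemB, higher in all 3 KI libraries (2.06 ± 0.83 SE, adjusted p = 0.361). Cdkn2d, the inhibitor p19INK4d, differed by 1.19 ± 0.78 (SE, adjusted p = 0.604), also without overlap. Cdk6, a G1 kinase, had 154, 251 and 172 CPM in control MemB and 82.9, 70.9 and 46.3 CPM in KI MemB (-1.53 ± 0.37 SE, adjusted p = 0.0688), and DESeq2 called it lower (adjusted p = 0.0122). Ccnd2, a G1 cyclin, differed by -0.40 ± 0.23 (SE, adjusted p = 0.538) with the groups apart. The MemB libraries thus did not overlap for 4 of the 13, where 12.1% of all genes tested did not. In B2 this held for 1, Ccne2, lower in KI, where 10.2% of all genes tested did not overlap. With both cell types averaged, edgeR gave 1.95 ± 0.59 (SE, adjusted p = 0.221) for Ccna2 and -1.04 ± 0.26 (SE, adjusted p = 0.108) for Cdk6, and DESeq2 called Ccna2 higher and Cdk6 lower, where it called 1.89% of all genes tested.

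**Figure D3:**
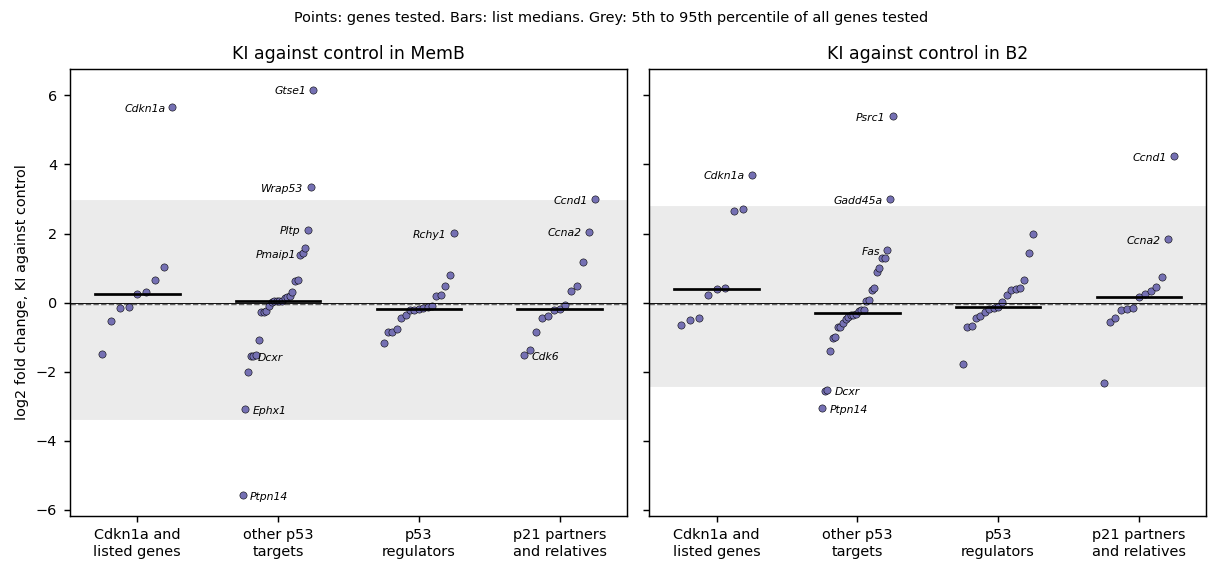
Log2 fold change of KI against control in MemB (left) and B2 (right) for every tested gene of the listed genes, the further p53 targets, the p53 regulators and the p21 partners. Black bars are list medians, the dashed line is the median of all 15053 genes and the grey band their 5th to 95th percentile (-3.36 to 2.93 in MemB and -2.42 to 2.76 in B2). Cdkn1a is at 5.67 and 3.70, and the list medians lie between -0.29 and 0.41. The 0.41 is the B2 median of the listed genes with Cdkn1a included, and without Cdkn1a it is 0.32.

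The genes most like Cdkn1a over the 12 libraries, by Pearson's r of log2(CPM + 0.5), were Gm10053 (0.909), Ccr6 (0.894), Rsph1 (0.889), Mccc2 (0.887) and Cox18 (0.877). None of these is on any of the p53 lists. Ccr6, a chemokine receptor of B cells, averaged 22.8 CPM in control MemB and 87.7 in KI MemB, and 15.6 and 30.6 in control and KI B2. The 12 libraries share their group structure, so a high r mostly repeats the order of the groups, and Rsph1 rests on 0 to 33 counts. Among the listed genes r was 0.430 for Zmat3, which placed it 1475th of 15052 genes, 0.359 for Bax, 0.200 for Mdm2 and 0.112 for Trp53. It was -0.16 for Ccng1.

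Transcripts of other cells moved with the MemB comparison. The 12 T and NK cell markers summed to 131 to 216 CPM in control MemB and 10.5 to 51.8 CPM in KI MemB, without overlap, and to 36.9 to 68.0 and 36.8 to 72.4 CPM in control and KI B2. Of them Nkg7, a granule protein of cytotoxic cells, had 45.7, 18.4 and 2.85 CPM in control MemB and 0.171, 0.276 and 0.294 CPM in KI MemB and was called lower by edgeR (-6.47 ± 1.46 SE, adjusted p = 0.0372). The 7 mast cell markers summed to 45.3, 1.53 and 242 CPM in control MemB, to 75.1 CPM in KI B2 replicate 3 and to at most 1.78 CPM in KI MemB and in the other 5 B2 libraries. Cma1, a mast cell protease, was also called lower in KI MemB (-6.40 ± 1.41 SE, adjusted p = 0.0375), although control MemB replicate 2, at 0.793 CPM, lay within the range of the KI libraries (0.392 to 0.798 CPM). Of 13 macrophage markers 6 were at 0 in all libraries, with sums of 11.5 to 24.8 CPM in control and 2.12 to 12.9 CPM in KI MemB, and of 6 granulocyte markers 5 were at 0. The 7 plasma cell markers summed to 403 to 642 CPM in control and 438 to 580 CPM in KI MemB, a sum carried by genes that B cells also express. Among them Jchain, the joining chain of secreted IgA and IgM, had 6.72, 5.58 and 18.01 CPM in control MemB and 153, 72.2 and 197 CPM in KI MemB without overlap, and was called higher (3.80 ± 0.68 SE, adjusted p = 0.00475). Jchain and Cma1 were also called by edgeR for a KI effect that was not the same in both cell types (MemB minus B2 4.43 ± 0.90 SE for Jchain and -9.45 ± 1.84 SE for Cma1, adjusted p = 0.0449 for each). Sdc1 (adjusted p = 0.354) had 421 counts in KI MemB replicate 1 and 0 to 3 in the other 5 MemB libraries. Tnfrsf17 (log2 difference 3.85, adjusted p = 0.481) had 303, 165 and 1 counts in KI MemB against 31, 3 and 3. Of the 7 plasma cell markers, 4 had a higher and 3 a lower mean in KI MemB. The lower ones were Irf4 (-0.56 ± 0.23 SE, adjusted p = 0.367) and Mzb1 (-0.66 ± 0.35 SE, adjusted p = 0.485), both without overlap, and Prdm1 (-0.57 ± 1.57 SE, adjusted p = 0.947). The T and NK cell sum was thus lower, and Jchain higher, in each MemB library where Cdkn1a was higher, and their part in the Cdkn1a, Ptpn14 and other differences was not tested.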

How the data were processed

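Cells were sorted, and their RNA was amplified with the Ovation RNA-seq System V2. Per the labels and methods, the authors used cutadapt 4.5 for trimming, STAR 2.7.11a for alignment to mm39 and RSEM 1.3.3 for estimated counts per gene. They deposited these expected counts, not normalized, in 1 table, in which 31.9% of the non-zero values are not whole. RSEM shares reads among similar or overlapping genes, and the strand setting and gene annotation are not given in the sources used here. All 12 columns matched a library by name, with 0 left over.

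Expected counts were rounded to whole numbers. The 516 entries without a symbol held 0.203% to 0.232% of counts and were left out. edgeR 4.0.16 (R 4.3.3) with TMM normalization, filterByExpr (minimum count 10) and robust quasi-likelihood fits tested 15053 genes in a single model of 4 group means, with Benjamini-Hochberg adjustment over all of them. Genes were called at an adjusted p below 0.05 if they also changed by more than 1 on the log2 scale. SE is the size of the log2 difference divided by the square root of F, and intervals are 95%. p-values measure the spread between libraries labelled as biological replicates, and the common biological coefficient of variation was 91.4%. Replicate pairs differed by far more than sampling noise. The fits were also tested on simulated data, for which no result is given here.

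The 10 genes and the gene lists were chosen with earlier results of these data known. From the other lists, the text names up to 3 rises and 3 falls whose KI and control MemB libraries did not overlap, any gene called by edgeR, and the 5 genes most like Cdkn1a. Alternatives were other normalization, filters, DESeq2 1.42.0, non-robust fits, a replicate block, a mouse block, fits without ribosomal RNA or within 1 cell type, and leaving out each library. The mouse block assumed which libraries shared a mouse, which the labels do not say.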

Additional observations from a re-analysis of the deposited data

How the results depend on the processing

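With 8 listed genes tested beside Cdkn1a, 0 were called under every alternative run, including DESeq2, the replicate block and each of the 12 libraries left out, in KI against control (MemB, B2, averaged, and the difference between these effects) and in MemB against B2 over both genotypes. Within control mice, DESeq2 called Bbc3 higher in MemB, although control MemB replicate 2 lay within the control B2 range. The Cdkn1a difference stayed between 5.22 and 5.99 in MemB and between 2.91 and 4.87 in B2. Small differences changed sign. With a replicate block, Fas in MemB was -0.37. Same-numbered libraries showed little shared deviation (correlations from -0.00744 to 0.0291). Libraries of a group varied widely, which can hide a shared mouse, so these values cannot exclude pairing. Replicate 3 was the high-Xist library in every group, so sex did follow the number. The labels do not state pairs, and the main fit took none. The block fit gave 6 calls over all genes for the difference between cell types, against 10, and otherwise moved no count by over 1.5 times. Using only replicates 1 and 2, with low Xist, an alternative chosen after seeing the data, gave 0.00037 for Ccng1 in MemB, -0.34 for Bax, 0.0016 for Trp53inp1 and -0.075 for Zmat3 in B2, and -0.0024 for Zmat3 in MemB against B2.

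On leaving out 1 library, the MemB difference ran from -0.42 to 0.0064 for Ccng1, -0.0077 to 0.47 for Bax, -0.55 to 0.21 for Trp53inp1, -0.033 to 1.17 for Zmat3 and -0.22 to 0.54 for Fas. The B2 difference ran from -0.13 to 0.54 for Bax, -0.87 to 0.13 for Trp53inp1 and -0.17 to 3.20 for Bbc3, and MemB against B2 from -0.012 to 0.36 for Trp53. Ptpn14 was not called in MemB within that cell type alone (adjusted p = 0.0535) or with low-Xist libraries (adjusted p = 0.162). Cdk6 was called in MemB with no filter (adjusted p = 0.00885) and without control B2 replicate 1 or 3 or KI B2 replicate 3. In MemB against B2, Fas was not called with low-Xist libraries (adjusted p = 0.204), and Bcl6 was not called without robust estimation (adjusted p = 0.108) or with the 6-library filter (adjusted p = 0.0523).

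DESeq2 called more genes over the whole table, 456 against 43 in MemB, 41 against 1 in B2, 285 against 12 averaged, 203 against 10 for the difference and 574 against 153 for MemB against B2. Without a filter the counts were 90, 8, 61, 43 and 236. Within MemB alone 15 genes were called, without robust estimation 22 in MemB and 4 for the difference, with upper-quartile factors 5 and with a 6-library filter 6 for the difference, and with low-Xist libraries 24 in MemB, 2 in B2, 21 averaged and 88 for MemB against B2. Leaving out 1 library gave 15 to 50 calls in MemB, 1 to 2 in B2, 7 to 22 averaged, 5 to 10 for the difference and 104 to 157 for MemB against B2. Sesn2 and Bbc3 varied widely between libraries, and their MemB intervals allow several-fold changes either way. Low counts kept Phlda3 out of the tests.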
